A study of Mus musculus with 6 samples.

Results

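The genes examined here are 10 cytokine genes, namely the IL-12 family genes Il12a, Il12b, Il23a, Il27 and Ebi3, together with Tnf, Il10, Il6, Il15 and Ifng. They were taken by name from a count matrix of 20649 genes, and all 10 were present. Their transcripts were located across CD45-positive cells of CT26 tumors (CT26 is a mouse colon carcinoma line), which were profiled by droplet-based single-cell RNA sequencing. According to the labels, the cells came from 6 subcutaneous tumors in BALB/c mice. Of these, 3 tumors had received exoASO-STAT6, exosomes loaded with an antisense oligonucleotide (ASO) against the transcription factor STAT6, and 3 had received exoASO-Scramble, exosomes with a scrambled ASO. Each tumor was injected 3 times on alternate days and collected 24 hours after the last dose, and all 6 therefore carried exosomes, an ASO and CT26 cells of a single line. The matrix holds the cells of all tumors together, each barcode ending in a number from 3 to 8. These suffixes were read as 6 libraries of unknown treatment, no comparison between treatments was made, and values per library are given as a description without a test.

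The IL-12 family consists of heterodimers that share subunits. The subunit encoded by Il12b pairs with that of Il12a to form IL-12 and with that of Il23a to form IL-23, whereas the subunit encoded by Ebi3 pairs with that of Il27 to form IL-27 and with that of Il12a to form IL-35. IL-12 from activated dendritic cells acts through STAT4 in T cells and NK cells and induces interferon-γ (Ifng), which activates macrophages. TNF and IL-6 are inflammatory cytokines, IL-10 restrains myeloid activation, and IL-15 sustains NK cells and memory T cells.

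Barcodes were sorted into 7 gates by transcripts of marker genes. A count of distinct molecular identifiers (UMIs) was used, and a barcode could pass several gates. The macrophage gate required at least 3 UMIs of Csf1r and Adgre1 together with none of Cd3e and Ncr1, and took 4688 of 9235 barcodes. The T gate took 1558 barcodes, the NK gate 1163, the neutrophil gate 1049, the type 1 dendritic gate 185, the mature dendritic gate 120 and the basophil gate 90. Of all barcodes, 15.2% passed more than 1 gate and 20.9% passed none. Between 1328 and 2017 barcodes came from 5 of the libraries and 867 from the library with suffix 3, the total UMI count per library lay between 11492757 and 33902084, and 16 of the barcode sequences occurred with more than 1 suffix. Each gate was checked against a list of markers, from which the genes that define the gates were left out. At least 2-fold above the remaining barcodes were 6 of 7 mature dendritic, 3 of 5 type 1 dendritic, 7 of 7 neutrophil, 7 of 7 basophil and mast cell, 4 of 4 T and 5 of 5 NK markers. All 7 macrophage markers were above the rest in the macrophage gate, but none by 2-fold, and macrophage transcripts ran through the other gates. C1qa, a complement gene of macrophages, reached 2945 CPM (UMIs per 1000000 UMIs) in the macrophage gate and still 2019 to 2309 CPM in the NK, T and neutrophil gates, against 73.2 CPM in NK barcodes without any Csf1r or Adgre1 UMI. This last group of 336 barcodes, with a median of 6845 UMIs, was taken as a reference low in macrophage transcripts. The 7 gates held more C1qa, so it does not measure the macrophage transcripts carried into them.

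In the GRCm38 annotation all 10 are protein-coding genes. The IL-12 family genes lie on separate chromosomes, Il12a at chr3:68690644-68698547 (plus strand), Il12b at chr11:44400063-44414033 (plus strand), Il23a at chr10:128296139-128298752 (minus strand), Il27 at chr7:126589010-126594941 (minus strand) and Ebi3 at chr17:55952640-55957022 (plus strand). The others are Tnf at chr17:35199381-35202007 (minus strand), Il10 at chr1:131019845-131024974 (plus strand), Il6 at chr5:30013114-30019981 (plus strand), Il15 at chr8:82331632-82403222 (minus strand) and Ifng at chr10:118441046-118445892 (plus strand). Il27 overlaps Apobr and Ebi3 overlaps Gm16712, each on the opposite strand, and Ifng overlaps Gm49751 on the same strand, so that reads in the shared stretches may be uncertain.

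The transcripts of these genes were spread very unevenly over barcodes. Il12b had 1590 UMIs in 91 barcodes, and 5 barcodes held 50% of them. For Ifng, with 4017 UMIs in 625 barcodes, 26 barcodes held 50%. The same share took 29 barcodes for Il12a, 52 for Il23a, 152 for Il10 and 174 for Il6. At the other end it took 434 barcodes for Il27, 606 for Ebi3, 684 for Il15 and 811 for Tnf, which was found in 5959 barcodes, or 64.5% of all.

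**Figure D1:**
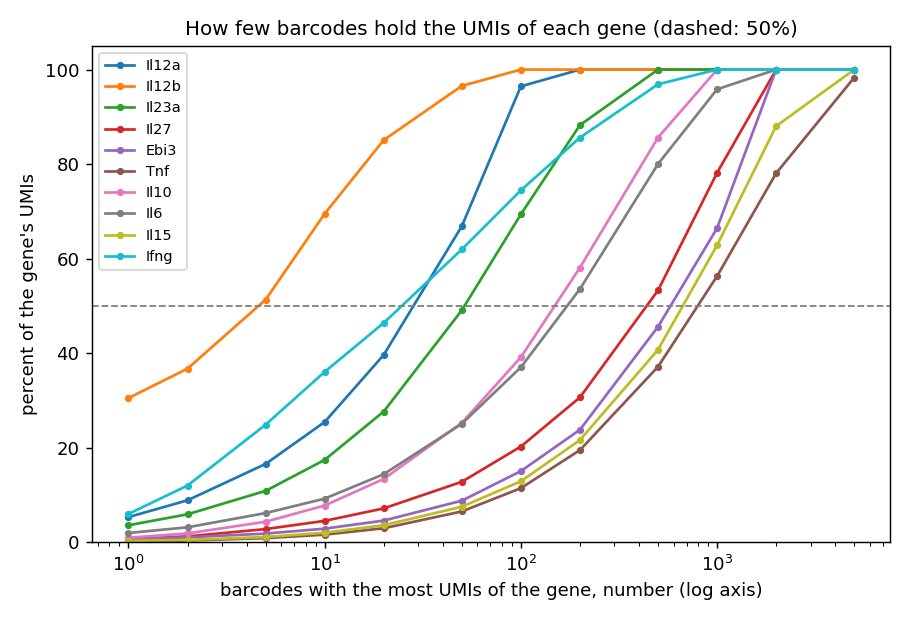
Percent of the UMIs of each gene (vertical axis) held by the given number of barcodes with the most UMIs of that gene (horizontal axis, log scale). The Il12b line crosses 50% at 5 barcodes and the Tnf line at 811.

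Il12b, the shared subunit of IL-12 and IL-23, was a transcript of mature dendritic barcodes, those with at least 1 UMI each of Ccr7 (the receptor that guides dendritic cells to lymph nodes) and Fscn1 (an actin-bundling gene of mature dendritic cells). The summed level in this gate was 437 CPM, with a 95% Poisson interval of 412 to 462 that, like all intervals here, covers counting error only. In the barcodes outside the gate it was 2.72 CPM, 160-fold lower. This fold was 97.6 without the barcode of the gate with the most Il12b, 118 without library 6 and 293 without library 4. The libraries with suffixes 3 to 8 gave 87.1, 296, 366, 1370, 172 and 452 CPM. Library 6 was thus the highest, and in each of the 6 libraries the gate lay above the remaining barcodes. Without library 6 the level was 286 CPM. A UMI of Il12b was found in 36 of 120 barcodes (30.0%), and after every barcode had been reduced to 3000 UMIs, which left out 9 of them, in 23.4% (95% Clopper-Pearson interval 15.9 to 32.4%). Among NK barcodes without Csf1r or Adgre1 the count was 0 of 285 at this depth, which allows a share of up to 1.05%.

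A single barcode of library 6 held 485 Il12b UMIs, 30.5% of those in the whole matrix. It carried 126 UMIs of Ccr7, 125 of Fscn1 and 106 of Rsad2, an interferon-induced gene, but only 1 of C1qa, and it passed the macrophage gate with 3 Csf1r and 2 Adgre1 UMIs. Without it the mature dendritic level was 266 CPM. In the macrophage gate Il12b stood at 11.8 CPM, or 5.12 CPM without this barcode. It was 1.07 CPM (interval 0.823 to 1.38) in the 3963 barcodes that passed the macrophage gate alone, and 0.690 CPM without library 3, which held 26 of the UMIs. In those that also passed another gate it was 52.2 CPM, or 20.5 CPM without the same barcode. In the 50 barcodes of the mature dendritic gate alone, where C1qa was at 59.8 CPM and all 7 mature dendritic markers outside the gate definition were at least 2-fold above the rest, Il12b was at 341 CPM (289 to 400). It was 196 CPM there without the barcode with the most Il12b, which held 68 UMIs, and 206 CPM without library 8. Library 6 was the lowest there, with 34.7 CPM, and library 8 the highest, with 840 CPM. The place of library 6 at the top of the whole gate rested on the 1 barcode with 485 of its 529 UMIs, without which library 6 was at 125 CPM, between libraries 3 and 7.

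Of the 20 barcodes with the most Il12b, 17 had at least 10 Ccr7 UMIs and 2 had none. Of these 20, 5 had Ccr7 without any Fscn1 and so fell outside the mature dendritic gate. Barcodes with a Ccr7 UMI, 668 in number, held 92.5% of all Il12b UMIs. The type 1 dendritic gate (Xcr1 and Clec9a, markers of cross-presenting dendritic cells) came next with 46.2 CPM (40.5 to 52.3), in libraries 3 to 8 at 0, 37.5, 115, 81.2, 12.5 and 23.4 CPM, and its interval did not overlap that of the mature dendritic gate. Ccl22, a chemokine of mature dendritic cells, had the profile most like that of Il12b over 12 groups of barcodes (6 gates, the 4 macrophage parts described with Il23a, and B and plasmacytoid dendritic barcodes) (Pearson r = 0.915), followed by Mrtfa (0.881) and Gyg (0.875). These groups share libraries and, in part, barcodes.

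**Figure D2:**
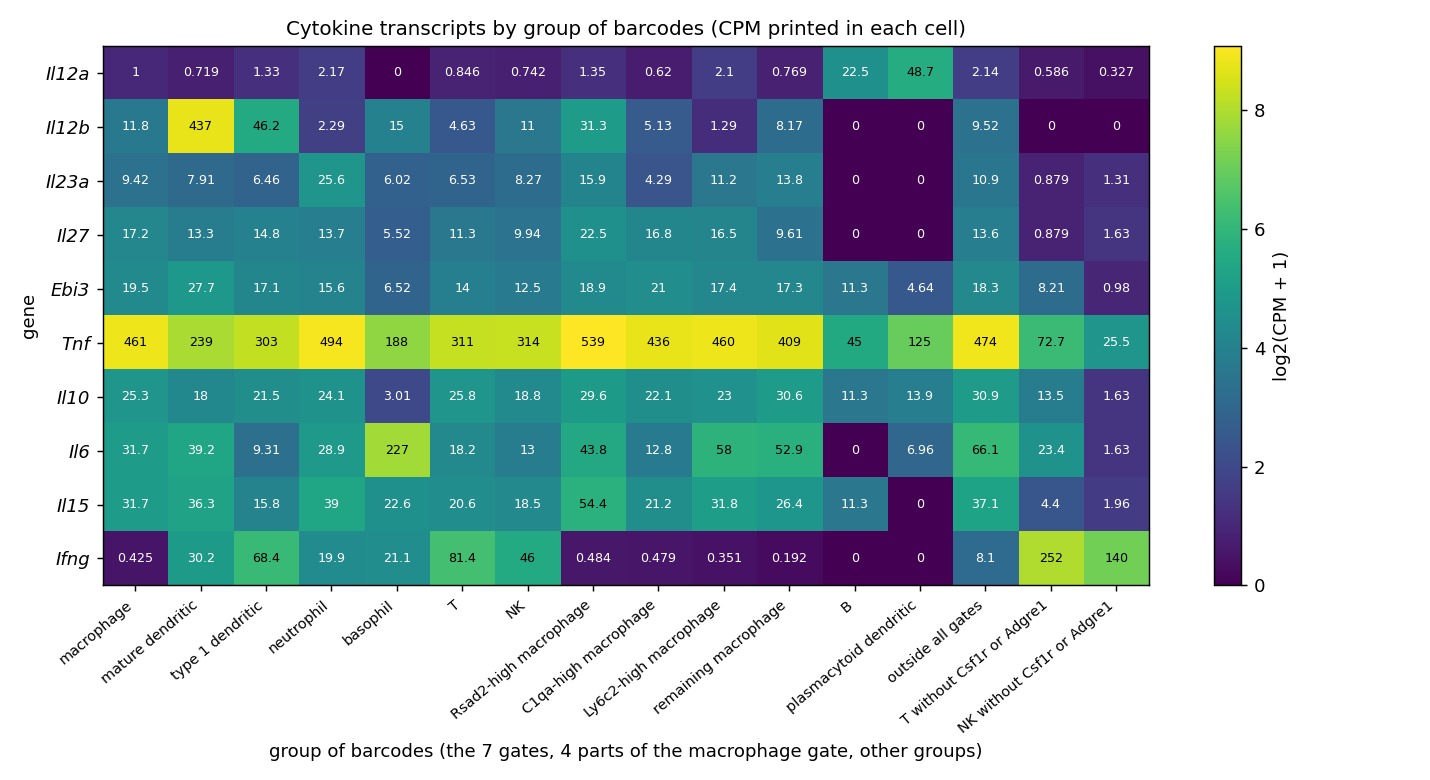
Level of each gene (rows) in each group of barcodes (columns), coloured by log2(CPM + 1) with the CPM printed in each cell. Il12b is highest in the mature dendritic gate (437), Il6 in the basophil gate (227) and Ifng in T barcodes without Csf1r or Adgre1 (252).

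Il12a, which pairs with Il12b in IL-12, was sparse, with 169 UMIs in 106 barcodes. In the 7 gates it did not exceed 2.17 CPM (neutrophil gate, interval 1.62 to 2.84). In the order of levels the type 1 dendritic gate came next, and the intervals of neighbours overlapped, but the neutrophil interval did not overlap that of the macrophage gate (0.784 to 1.26), the T gate (0.579 to 1.20) or the NK gate (0.453 to 1.15). Outside the gates it was higher in 2 small groups. In 51 plasmacytoid dendritic barcodes (Siglech at least 3 UMIs), cells known for type I interferon, Il12a reached 48.7 CPM (30.2 to 74.5), from 21 UMIs in 11 barcodes, and was above the remaining barcodes in 5 of 6 libraries. In 38 B barcodes it was at 22.5 CPM (6.14 to 57.7), from 4 UMIs. The profile of Il12a over 12 groups was nearest to those of Syvn1 (r = 0.979), Atad1 (0.976) and 1110059E24Rik (0.975). All were highest in the plasmacytoid dendritic barcodes. Choosing genes by likeness to a profile with this peak favours such genes, so this adds no separate evidence.

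No barcode held UMIs of both Il12a and Il12b. Of the 106 barcodes with Il12a this is 0%, a count that allows at most 2.83%, and the share with Il12b among the other barcodes was 0.997%, which lies under that limit. In the mature dendritic gate 36 of 120 barcodes had Il12b and 2 had Il12a (1.67%, beside 1.15% of all barcodes). Il23a and Il12b met in 5 barcodes, 1.44% of those with Il23a (0.470 to 3.33%) beside 0.968% among barcodes without it. All 5 passed the neutrophil gate, where the pair made up 2.92% of the Il23a barcodes (0.956 to 6.69%), beside 0.797% with Il12b among the others, and where 5 of the 12 barcodes with Il12b had Il23a. They were deep, with a median of 32044 UMIs. At 3000 UMIs the pair was in 0 of 121 barcodes with Il23a, which allows up to 2.48%. None of the 20 barcodes with the most Il12b contained a UMI of Il12a or Il23a.

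Il23a, the subunit specific to IL-23, a cytokine that maintains IL-17-producing lymphocytes, was highest in the neutrophil gate (S100a9 at least 5 UMIs). The level was 25.6 CPM (23.6 to 27.7), and the macrophage gate came next with 9.42 CPM (8.73 to 10.2), lower in 6 of 6 libraries. The mature dendritic gate had 7.90 CPM (4.95 to 11.97), from 22 UMIs in 8 of 120 barcodes, beside 8.92 CPM outside it. All 22 UMIs lay in the 70 barcodes that passed a further gate. The 50 barcodes of the mature dendritic gate alone had 0 UMIs, which allows up to 6.65 CPM. The neutrophil values of libraries 3 to 8 were 17.9, 27.4, 17.0, 42.3, 12.7 and 25.1 CPM, again highest in library 6. Of the neutrophil barcodes 54.4% also passed the macrophage gate. In the 141 that passed the neutrophil gate alone, Il23a was at 44.4 CPM (34.4 to 56.4), or 21.1 CPM without library 6, whereas barcodes of the macrophage gate alone had 6.03 CPM. C1qa was still at 1260 CPM in these 141 barcodes, beside 3010 CPM in the macrophage gate alone. At 3000 UMIs, 5.60% of neutrophil barcodes (4.28 to 7.18%), 1.55% of macrophage barcodes and 0.351% of the NK reference had a UMI. Of the 52 barcodes that held 50% of Il23a, 28 were in the macrophage gate, 23 were in the neutrophil gate, a barcode being able to pass both, and 18 came from library 8. The genes most like it in profile were 1700019L13Rik (r = 0.972), F3 (0.971), which encodes tissue factor, and Xdh (0.960).

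Within the macrophage gate, Il23a was lowest in the C1qa-high part. This gate was divided into 4 exclusive parts by UMIs per 10000, in the order of Rsad2 (at least 2, 1239 barcodes), C1qa (at least 20, 1903 barcodes), Ly6c2, a gene of inflammatory monocytes (at least 2, 731 barcodes), and the remaining 815 barcodes. Il23a was at 4.29 CPM in the C1qa-high part, at 11.2 in the Ly6c2-high part (6.12 without library 7), at 13.8 in the remaining part and at 15.9 in the Rsad2-high part. The C1qa-high part was below the remaining part in 6 of 6 libraries and below the Rsad2-high part in 5. The Rsad2-high part was the highest of the 4 in 2 libraries, and the Ly6c2-high part led when C1qa was read first.

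Il27, the specific subunit of IL-27, was the only one of the 10 genes with its highest level in the macrophage gate. It stood at 17.2 CPM (16.3 to 18.2), in libraries 3 to 8 at 14.3, 21.1, 7.85, 20.1, 23.1 and 14.3 CPM. Library 5 was thus the lowest, and the gate was above the remaining barcodes in 5 of 6 libraries. The interval overlapped that of the type 1 dendritic gate (14.8 CPM), of which 48.6% of barcodes also passed the macrophage gate. The 43 type 1 dendritic barcodes that passed no other gate held only 1 Il27 UMI, with an interval reaching up to 8.35 CPM. Those that passed a further gate held 77 UMIs, at 16.75 CPM. The Rsad2-high part had the highest value, 22.5 CPM (20.4 to 24.8), leading in 3 of 6 libraries, and the remaining part the lowest, 9.61 (7.82 to 11.7). NK barcodes without Csf1r or Adgre1 were at 1.63 CPM (0.530 to 3.81), or 0.983 CPM without the highest barcode. Hk3, a hexokinase gene, and Scarf1 followed the same profile (r = 0.988 for both), as did Gm14085 (0.987).

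Ebi3, the partner of Il27, was more evenly spread. The mature dendritic gate had 27.7 CPM (21.8 to 34.6), the macrophage gate 19.5 (18.5 to 20.6) and the type 1 dendritic gate 17.1 (13.7 to 21.0). Without the barcode with the most Ebi3, which held 15 of the 77 UMIs, the mature dendritic level was 22.6 CPM. The mature dendritic gate was above the macrophage gate in 4 of 6 libraries, with 53.6, 18.6, 21.5, 10.4, 43.4 and 43.5 CPM in libraries 3 to 8, so that the order of these 2 gates was not the same throughout. In barcodes of the mature dendritic gate alone the level was 42.1 CPM (25.3 to 65.8). The 4 macrophage parts lay within 17.3 to 21.0 CPM. Rassf2 (r = 0.963), Rab12 (0.961) and Plekhg2 (0.943) were nearest in profile.

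Both subunits of IL-27 were seen in 409 barcodes, 28.4% of those with Il27, while Ebi3 was found in 17.9% of barcodes without Il27. Barcodes with Il27 were deeper, with a median of 18913 UMIs against 10800. At 3000 UMIs the shares were 5.35% (3.25 to 8.23%) and 4.92%, the second within the interval of the first, from 19 barcodes with both. The partner pair of IL-35, Il12a and Ebi3, occurred together in 23 barcodes, 21.7% of those with Il12a (14.3 to 30.8%), against 19.5% with Ebi3 among the others, and at 3000 UMIs in 0 of 26 barcodes with Il12a, which allows up to 11.5%.

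Tnf reached 494 CPM (485 to 503) in the neutrophil gate and 461 CPM (457 to 466) in the macrophage gate. These intervals did not overlap, but the neutrophil gate was the higher in only 3 of 6 libraries. In barcodes of the neutrophil gate alone Tnf was at 649 CPM, with a UMI in 76.6% of them, and in those of the macrophage gate alone at 452 CPM, with a UMI in 70.9%. The neutrophil barcodes of this single-gate group still had C1qa at 1260 CPM, so they were not free of macrophage transcripts. The dendritic groups were lower. In the type 1 dendritic gate alone, 13 of 43 barcodes (30.2%) had a UMI and the level was 123 CPM, and among plasmacytoid dendritic barcodes 10 of 51 (19.6%) had one, at 125 CPM, or 77.2 CPM without the highest barcode. In the mature dendritic gate alone, 3 of 50 barcodes had Tnf, and its 68.7 CPM became 4.59 CPM without 1 barcode. In the basophil gate alone, 7 of 30 barcodes (23.3%) had it, at 272 CPM, or 125 CPM without the highest. NK and T gates stood at 314 and 311 CPM, whereas NK barcodes without Csf1r or Adgre1 had 25.5 CPM (20.1 to 31.8) and T barcodes without them 72.7 CPM (63.9 to 82.3). At 3000 UMIs, 59.7% of neutrophil barcodes, 48.8% of macrophage barcodes and 7.02% of the NK reference had a Tnf UMI. The 4 macrophage parts lay between 409 and 539 CPM, with the Rsad2-high part at the top, where the Ly6c2-high part stood when C1qa was read first. Bak1 (r = 0.989), Itgam (0.988), which encodes the integrin CD11b, and Slc35f5 (0.987) were most like Tnf.

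Library 5 was the exception for Tnf. In the macrophage gate the libraries with suffixes 3 to 8 gave 535, 553, 195, 412, 495 and 511 CPM, and in the neutrophil gate 524, 479, 244, 538, 498 and 485 CPM. Library 5 lay below the other 5 in both gates and was lowest in 5 of the 7 gates. Other genes that the NF-κB pathway controls did not follow it as a group. In the macrophage gate, Zfp36, which encodes a protein that destabilises Tnf mRNA, was at 1701 CPM in library 5 and between 1188 and 1760 in the others, and Tnfaip3, a feedback inhibitor, was at 376 CPM within a range of 324 to 567. Nfkbiz and Socs3 were lowest in library 5, at 500 and 253 CPM. Library 5 also had the lowest median depth, 7270 UMIs per barcode, and the part of depth in its Tnf level was not tested. Without library 5 the level was 502 CPM in the neutrophil gate.

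The promoters of Tnf and Il6, both known targets of NF-κB, were searched together with those of the other genes for a kappa B type motif, GGANNTTCC, on both strands. RefSeq promoters (GRCm38.p6, 300 bases around each start) were found by symbol for 6 of the 10 genes, namely Ebi3, Ifng, Il12a, Il12b, Il6 and Tnf. Those of Il6, Tnf and Il12a contained the motif, as did 4.26% of all 32851 promoters. The stretches are shown to place the match in each of the 3 genes, printed 5′ to 3′ on the strand of the gene with the match in capitals.
Il6, chr5:30013061-30013089, plus strand, match 43 bases before the start: atcaaatgtgGGATTTTCCcatgagtctc
Tnf, chr17:35202201-35202229, minus strand, match 212 bases before the start: acgacggggaGGAGATTCCttgatgcctg
Il12a, chr3:68690440-68690468, plus strand, match on the opposite strand 194 bases before the start: taagttccaaGGAATCTCCtaccccaaac
A second Il12a promoter held a match after its start. The interferon-stimulated response type motif GAAANNGAA was in none of the 6 genes' promoters and in 8.56% of all. A match describes letters in this window and is not a measured site.

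Among the 7 gates Il6 was highest in basophil barcodes, those with a UMI of Mcpt8, a basophil protease. The level over the gate was 227 CPM (207 to 249), against 28.4 CPM in the barcodes outside, and the mature dendritic gate followed with 39.2 CPM (32.2 to 47.2). Among the libraries with suffixes 3 to 8 the values were 102, 7.26, 559, 1500, 260 and 181 CPM. Library 6 was far above the others and library 4, with 25 of the 90 barcodes, far below. Without library 6 the level was 109 CPM and without library 4 it was 433 CPM.

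The basophil gate was itself mixed. Of its 90 barcodes 34 also passed the NK gate and 26 the T gate, and C1qa was at 1148 CPM. The 30 barcodes that passed it alone had a median of 2881 UMIs. In these, all 7 basophil and mast cell markers outside the gate definition were at least 2-fold above the rest, among them Il4 at 730 CPM, the histidine decarboxylase gene Hdc at 5205 CPM and the transcription factor gene Gata2 at 1236 CPM. C1qa was at 28.1 CPM. Il6 stood at 2518 CPM there (2226 to 2838), from 269 UMIs in 20 of 30 barcodes (66.7%), and at 1555 CPM without library 6. Each library contributed 2 to 9 of these barcodes, with 3478, 317, 1640, 3605, 2212 and 2291 CPM in libraries 3 to 8, so that library 4 was again the lowest but lay above the whole gate's 227 CPM. In the 60 basophil barcodes that passed a further gate Il6 was at 97.5 CPM (83.9 to 113), or 62.2 CPM without library 6 and 194 CPM without library 4. At 3000 UMIs a UMI was found in 60.0% of the 15 single-gate barcodes deep enough (32.3 to 83.7%), with 15 left out, and in 0.351% of the NK reference. Hgf, the hepatocyte growth factor gene, was nearest to Il6 in profile (r = 0.932), followed by Cox7a1 (0.889) and Dedd (0.888).

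**Figure D3:**
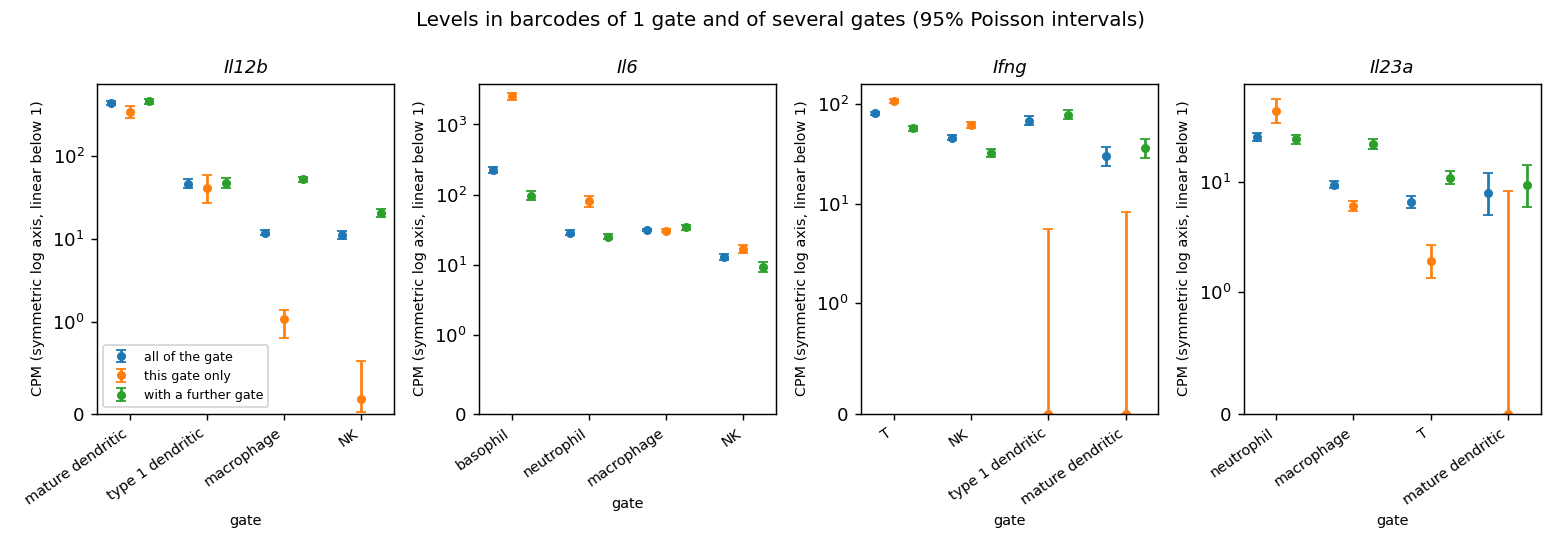
Level of 4 genes in CPM (vertical, symmetric log axis) in 4 gates each, for all barcodes of the gate, those of this gate only and those that pass a further gate, with 95% Poisson intervals. Il6 in basophils is at 2518 CPM in the single-gate barcodes against 97.5 in the others, while Il12b in macrophages is at 1.07 against 52.2, or 20.5 without the barcode with 485 Il12b UMIs.

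Of the 4390 Il6 UMIs, 2315 were in the macrophage gate, and its 4 parts differed. The C1qa-high part was at 12.8 CPM (11.7 to 14.0), the Rsad2-high part at 43.9 (40.9 to 47.0), the remaining part at 52.9 (48.6 to 57.5) and the Ly6c2-high part at 58.0 (53.0 to 63.3). In libraries 3 to 8 the C1qa-high part had 21.5, 6.12, 16.5, 26.7, 16.8 and 7.75 CPM, and the Ly6c2-high part 23.1, 35.7, 57.7, 95.5, 60.2 and 30.8 CPM. The C1qa-high part was the lowest of the 4 in each of the 6 libraries, while the Ly6c2-high part led in 2, and with all thresholds at 0.5 times the remaining part led with 72.8 CPM. At 3000 UMIs, 2.70% of C1qa-high barcodes (2.02 to 3.54%) and 9.07% of Ly6c2-high barcodes (7.08 to 11.4%) had Il6. Barcodes outside all gates and not B or plasmacytoid dendritic, 1839 in number and shallower, with a median of 5151 UMIs, had 66.1 CPM (61.5 to 71.0), above the rest in 6 of 6 libraries. Their summed monocyte markers were at 2954 CPM against 1700 elsewhere, and the part of monocytes in their Il6 level was not tested.

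**Figure D4:**
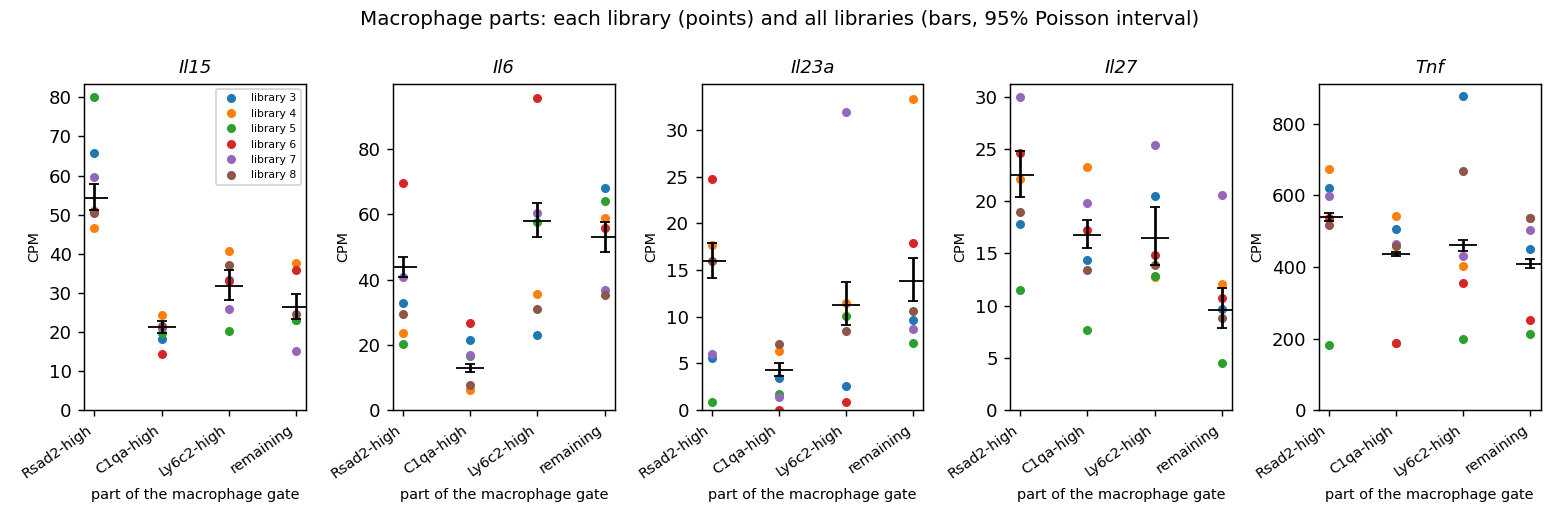
Level of 5 genes in CPM in the 4 parts of the macrophage gate. Points are libraries and black bars all libraries with a 95% Poisson interval. Il15 is highest in the Rsad2-high part in each library, and the Il6 level of the C1qa-high part is the lowest in each.

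Il15 followed the interferon-induced part. It stood at 54.4 CPM (51.1 to 57.9) in the Rsad2-high part and at 21.2 CPM (19.7 to 22.8) in the C1qa-high part, 2.56-fold apart. The Rsad2-high values of libraries 3 to 8 were 65.8, 46.7, 80.2, 50.9, 59.6 and 50.4 CPM, and those of the C1qa-high part 18.3, 24.5, 19.8, 14.3, 21.1 and 21.6 CPM. The 2 sets of values did not overlap, and the Rsad2-high part was the highest of the 4 in each library. At 3000 UMIs the shares were 16.1% (14.1 to 18.3%) and 6.31% (5.25 to 7.50%), beside 1.05% in the NK reference. Among the 7 gates the neutrophil gate led with 39.0 CPM (36.5 to 41.6), whose interval overlapped that of the mature dendritic gate (36.3 CPM). In barcodes of the mature dendritic gate alone Il15 reached 86.4 CPM (61.4 to 118), and in the 30 of the basophil gate alone 215 CPM (136 to 323), from 23 UMIs. Tent4a (r = 0.972), Rbms2 (0.953) and Kdm4b (0.951) had the nearest profiles.

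Il10 had no clear leading gate. The T gate was at 25.8 CPM (24.2 to 27.5), the macrophage gate at 25.3 (24.2 to 26.5), the neutrophil gate at 24.1 (22.2 to 26.2) and the type 1 dendritic gate at 21.5 (17.7 to 25.8), each interval overlapping the next, and the T gate was above the macrophage gate in 3 of 6 libraries. Basophil barcodes were the lowest, at 3.01 CPM from 6 UMIs, and at 1.10 CPM without library 3, 5.83 CPM without library 4 and 1.02 CPM without the highest barcode. The macrophage parts lay between 22.1 CPM (C1qa-high) and 30.6 CPM (remaining part). Trp53inp2 (r = 0.957), Slc25a45 (0.933) and Camta2 (0.927) followed Il10 most closely.

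Within the T gate the parts differed. Barcodes with Foxp3, the transcription factor gene of regulatory T cells, had 59.9 CPM of Il10 (52.8 to 67.6), and those with Cd8a or Cd8b1 and no Cd4 had 19.7 CPM (17.8 to 21.9). In libraries 3 to 8 the Foxp3 values were 23.6, 46.1, 43.8, 116, 89.6 and 36.3 CPM and the CD8 values 13.6, 13.9, 51.1, 14.3, 25.5 and 17.7 CPM. The Foxp3 group was thus higher in each library except library 5. C1qa was at 1936 CPM in the Foxp3 group and at 2048 CPM in the CD8 group. Without Csf1r and Adgre1, the Foxp3 group had 58.4 CPM (34.0 to 93.5), from 17 UMIs in 6 of 47 barcodes, and the CD4 group, which has no Foxp3 UMI, 61.7 CPM (38.6 to 93.4), from 22 UMIs in 7 of 48. Without the highest barcode of each, which held 7 and 13 of these UMIs, the levels were 34.7 and 25.9 CPM. The CD8 group had none in 165 barcodes, which allows up to 1.65 CPM.

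Ifng was a transcript of T and NK barcodes. The T gate had 81.4 CPM (78.6 to 84.4), with 29.5, 80.3, 108, 104, 83.4 and 73.5 CPM in libraries 3 to 8, and the NK gate 46.0 CPM (43.4 to 48.6), with 12.5, 14.4, 27.8, 128, 52.6 and 60.9 CPM. Library 3 was the lowest for both, and the T gate was above the remaining barcodes in 6 of 6 libraries. The macrophage gate, which excludes Cd3e and Ncr1, had 0.425 CPM (0.289 to 0.603). The type 1 dendritic gate stood at 68.4 CPM, but its 43 barcodes that passed no other gate had 0 UMIs, which allows up to 4.50 CPM, and 241 of the gate's 360 UMIs came from 1 barcode, without which the gate was at 22.8 CPM.

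Barcodes without Csf1r and Adgre1 gave higher levels, 252 CPM (235 to 269) for T and 140 CPM (127 to 153) for NK, and without the single NK barcode that held 241 UMIs the second was 61.0 CPM. Within these T barcodes the CD8 group had 368 CPM (341 to 397), the CD4 group 311 (256 to 375) and the Foxp3 group 17.2 (5.58 to 40.1). The CD8 level was 261 CPM without the highest barcode, which held 205 UMIs, and 243 CPM without library 4. The CD4 level came from 13 of 48 barcodes and was 121 CPM without the highest one, and the Foxp3 level was 7.12 CPM without its highest. At 3000 UMIs, 26.1% of the CD8 group (19.4 to 33.9%), 12.3% of NK barcodes (8.71 to 16.7%), 2.90% of the neutrophil gate and 2.82% of the basophil gate had a UMI. Of the 26 barcodes that held 50% of Ifng, 25 passed the T or NK gate and 21 had a Cd8a or Cd8b1 UMI. Tox, a transcription factor gene of chronically stimulated T cells, had the nearest profile (r = 0.973), with Slc17a6 (0.967) and Tnfrsf18 (0.959) next.

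**Figure D5:**
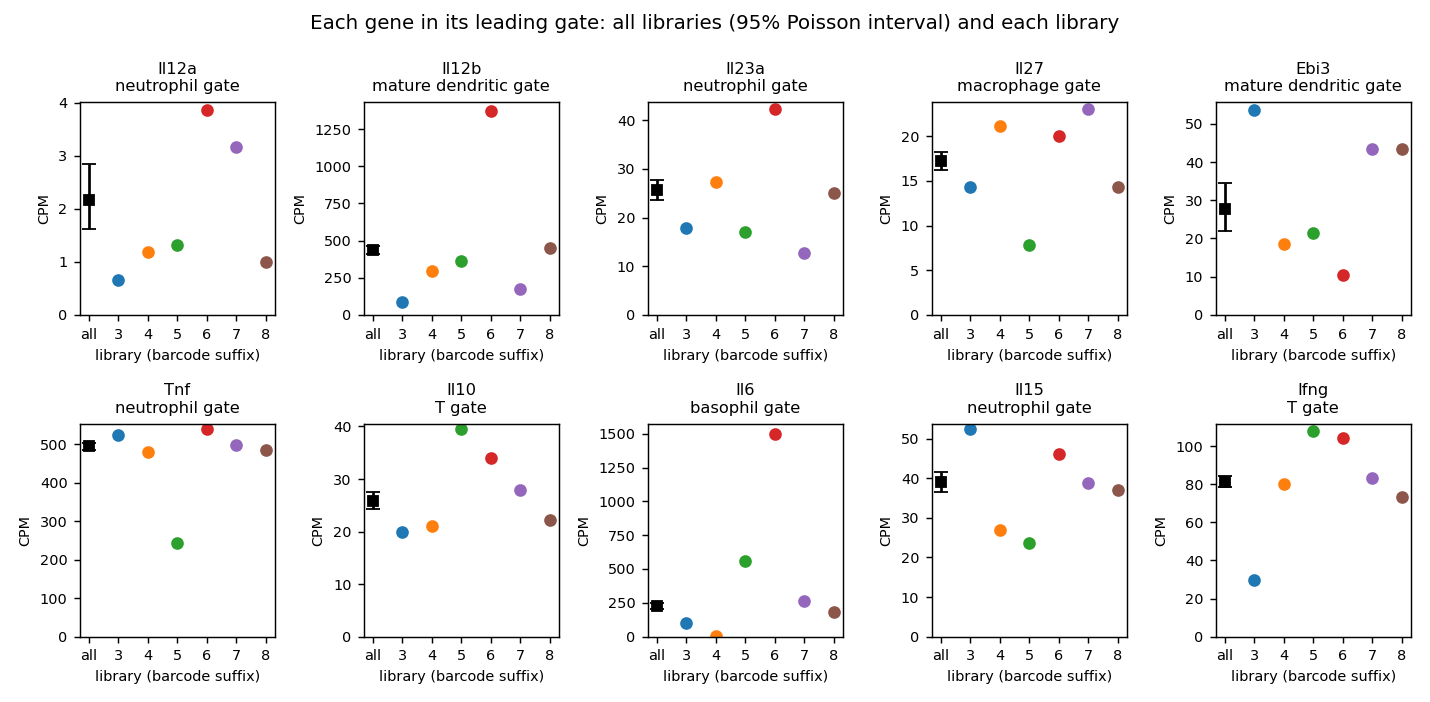
Level of each gene in CPM in the gate where it was highest, over all libraries (black square, 95% Poisson interval) and in each library of unknown treatment (coloured points, barcode suffix on the horizontal axis). Library 6 stands above the others for Il12b and Il6, and library 5 below the others for Tnf.

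Of the 10 genes, 5 were called in at least 1 of the 7 gates (Il12a, Il12b, Il23a, Il6 and Ifng). A gene was called when its CPM in the gate was at least 2-fold that of the barcodes outside, among genes with at least 5 expected UMIs. In the mature dendritic gate 1 of 9 testable genes was called (Il12b), where 4.18% of all genes tested were. In the type 1 dendritic gate 2 of 10 were called (Il12b and Ifng), beside a background of 2.73%, and in the neutrophil gate 2 of 10 (Il12a and Il23a), beside 1.27%. The Ifng call rested on 1 barcode, without which Ifng was 0.843-fold of the level outside, and on library 8, without which it was 0.928-fold. Il12a in the neutrophil gate was 2.16-fold higher, and 1.83-fold without library 6. The basophil gate had 1 of 9 (Il6), beside 3.94%, and the T gate 1 of 10 (Ifng), beside 7.44%. In the macrophage gate 0 of 10 were called, where 1.52% of all genes were, and in the NK gate 0 of 10, where 5.35% were. At least 2-fold lower in the basophil gate were 4 of 9 (Il27, Ebi3, Tnf and Il10), where 12.4% of all genes tested were. Without library 4, Ebi3 was at 0.516 and Tnf at 0.658 of the level outside, which ended these 2. The type 1 dendritic and NK gates each had 1 lower gene, Il6, beside 3.7% and 3.22%, and the macrophage gate had Ifng, beside 11.8%. Il12b was lower in the neutrophil gate, beside 2.49%, and in the T gate, beside 2.68%, where it was at 0.511 of the level outside without the barcode with 485 UMIs and at 0.569 without library 6. The mature dendritic gate had 0 of 9, beside 3.33%. The median log2 fold of the tested genes was 0.15 in the macrophage, 0.08 in the mature dendritic, -0.12 in the type 1 dendritic, -0.07 in the neutrophil, -0.57 in the basophil, -0.54 in the T and -0.52 in the NK gate. Over all genes tested the medians were -0.06, -0.10, -0.01, -0.06, -0.13, 0.05 and 0.02 in the same order.

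Of 15 receptor genes for these cytokines, 14 could be tested in each gate. In the NK gate 4 were called higher (5.35% of all genes were), namely Il12rb2, the signalling chain of the IL-12 receptor, Il27ra, Il2rb, which IL-15 uses, and Ifngr1. In the T gate 3 were called (7.44% of all genes were), Il12rb2, Il27ra and Il2rb. The median log2 fold of the receptor genes was nevertheless -0.24 in the NK gate and -0.12 in the T gate, beside 0.02 and 0.05 over all genes tested, and in neither was a receptor gene 2-fold lower. Il12rb2 was at 27.9 CPM in the NK gate and 22.8 in the T gate but 2.29 in the macrophage gate, and at 69.9 CPM (60.9 to 79.9) in NK barcodes without Csf1r or Adgre1. It was higher than outside in 6 of 6 libraries in both lymphocyte gates. Il23r had at most 4 UMIs in any gate. In the macrophage gate none was called higher and 4 were at least 2-fold lower, where 11.8% of all genes were, namely Il12rb2, Il27ra, Il2rb and Ifngr1.

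Il15ra, which presents IL-15 to neighbouring cells, was called in the mature dendritic gate and in no other of the 7, at 75.5 CPM against 13.7 outside (5.52-fold), higher in 6 of 6 libraries. In barcodes of this gate only it was at 173 CPM (137 to 216). Of 27 signalling and regulatory genes, 26 could be tested there and 5 were called, where 4.18% of all genes were, namely Jak2, Stat4, Stat5a, Batf3 and Rel, the last an NF-κB subunit. Eomes was at least 2-fold lower, where 3.33% of all genes were, and the median log2 fold of the list was 0.04 beside -0.10 over all genes. Stat4, which transmits the IL-12 signal, was at 123 CPM in the mature dendritic gate, above the 45.5 and 40.2 CPM of the NK and T gates, although NK barcodes without Csf1r or Adgre1 reached 125 CPM. Of the mature dendritic barcodes, 25% also passed the T gate and 10.8% the NK gate, and their part in this Stat4 level was not tested. Stat4 and Tbx21, the T-bet gene that drives Ifng, were called in both the NK and the T gate, with Eomes and Irf8 in the NK gate as well. This made 4 of 26 signalling genes in the NK gate, beside 5.35% of all genes, and 2 of 26 in the T gate, a share near its background of 7.44%. The list medians were -0.18 and -0.05, beside 0.02 and 0.05 over all genes. In the basophil gate 1 receptor gene (Il2rb) and 2 signalling genes (Tbx21 and Eomes) were called, where 3.94% of all genes were, and 37.8% of its barcodes also passed the NK gate. At least 2-fold lower there, beside 12.4% of all genes, were 5 receptor genes (Il6st, Il6ra, Tnfrsf1a, Tnfrsf1b and Ifngr2) and 6 signalling genes (Maf, Batf3, Irf1, Zfp36, Socs3 and Adam17).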

How the data were processed

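CD45-positive cells of 6 CT26 tumors were profiled with a 10x Genomics 3′ droplet kit. The authors deposited raw UMI counts, without normalization, in 1 matrix of all tumors. The submitters' processing notes name Cell Ranger, Seurat, R and the mouse build mm10. Barcode suffixes matched no sample label, so treatments were not compared. The genes, gates and lists were chosen with earlier results of these data known.

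Gates required at least 3 UMIs of Csf1r and Adgre1 with no Cd3e and no Ncr1 (macrophage), 1 UMI each of Ccr7 and Fscn1 (mature dendritic), 2 of Xcr1 and Clec9a (type 1 dendritic), 5 of S100a9 (neutrophil), 1 of Mcpt8 (basophil), 2 of the Cd3 genes (T) or 1 of Ncr1 (NK). Barcodes outside all gates with at least 3 UMIs of Cd79a and Ms4a1 (B) or of Siglech (plasmacytoid dendritic) were kept apart. No filter on cells was applied. No doublet caller was run. Barcodes of several gates were reported separately, and the 5% with most UMIs were left out in an alternative.

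Summed counts were expressed as CPM with exact Poisson intervals, and shares of barcodes with exact Clopper-Pearson intervals (95%). A count of 0 was given the limit of 3 counts. Depth per library, given with the results, and the few UMIs of some genes set the precision. Barcodes were thinned to 3000 UMIs without replacement, and shallower ones were left out (Python 3.11.15, numpy 2.4.6, scipy 1.17.1, pandas 2.3.3). A gene was called at 2-fold or more among genes with at least 5 expected UMIs, without a test, and this step was tested on simulated data. Genes named besides the 10 come from the receptor, signalling and marker lists, or are the 3 with the highest Pearson correlation on log2(CPM + 1) over 12 groups, among genes with at least 500 UMIs that no gate uses. These groups share libraries, depth and, in part, barcodes. Alternatives were single-gate barcodes, thresholds raised by 1, equal weight per barcode, at least 1000 genes, other depths, folds and macrophage thresholds, and each library left out of the leading gate. Values without single barcodes, or without a library in groups other than the leading gate, marker counts without the genes of the gates, and calls without a barcode or library were added after seeing the data. Gene models came from GENCODE (GRCm38) and promoters from RefSeq.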

Additional observations from a re-analysis of the deposited data

Results flagged for a closer look

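Each of the 10 genes was examined in its leading gate over the 6 libraries of unknown treatment. A single library lay far from the others in 3 cases, judged by its gap to the nearest library as a share of the whole range. Chance alone singles out about 1 in 20 such sets if the values are normally distributed. Levels from few barcodes per library need not keep this rate.

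Il12b in the mature dendritic gate was at 1370 CPM in library 6, where the nearest library had 452 CPM and the gap was 0.716 of the range. The barcode with 485 Il12b UMIs lies in this library, and without it library 6 was at 125 CPM, below the 452 CPM of library 8.

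Tnf in the neutrophil gate was at 244 CPM in library 5, against 479 CPM in the nearest library, with a gap of 0.800 of the range.

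Il6 in the basophil gate was at 1500 CPM in library 6, against 559 CPM in the nearest, with a gap of 0.630 of the range, just past the critical value. In barcodes of the basophil gate alone, library 6 had 3605 CPM and library 3 had 3478 CPM.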

How the results depend on the processing

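Of the 10 genes, 8 kept their leading gate in barcodes of 1 gate only (Il10 moved to neutrophils and Il15 to basophils), 8 with thresholds raised by 1 (Il15 moved to mature dendritic and Ifng to type 1 dendritic barcodes), 9 without the 5% of barcodes with most UMIs (Il15 moved to mature dendritic barcodes) and 10 with at least 1000 genes. The levels themselves moved more. In barcodes of 1 gate only they were 3.31 CPM for Il12a, 341 for Il12b, 44.4 for Il23a, 42.1 for Ebi3, 649 for Tnf, 29.1 for Il10, 2518 for Il6, 60.3 for Il15 and 107 for Ifng. With thresholds raised by 1, Il12b was at 665 CPM, Ebi3 at 35.6, Il6 at 388 and Ifng at 86.7. With at least 1000 genes, Il6 was at 199 CPM. Without the 5% of barcodes with most UMIs the levels were 600.1 CPM for Il12b, 28.3 for Il23a, 518 for Tnf, 29.9 for Il10, 510 for Il6, 44.3 for Il15 and 74.7 for Ifng. With equal weight per barcode they were 2.90 CPM for Il12a, 399.6 for Il12b, 30.9 for Il23a, 522 for Tnf, 36.1 for Il10, 1250 for Il6, 48.3 for Il15 and 84.6 for Ifng. Without the barcode with most UMIs of the gene, an alternative chosen after seeing the data, Il12b was at 266 CPM, Il6 at 201 and Ifng at 75.2. The cause was not tested.

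With 1 library left out at a time, the level lay between 1.67 and 2.76 CPM for Il12a, 286 and 519 for Il12b, 20.7 and 29.6 for Il23a, 15.95 and 18.59 for Il27, 23.8 and 33.0 for Ebi3, 481 and 502 for Tnf, 24.6 and 27.8 for Il10, 109 and 433 for Il6, 36.9 and 40.4 for Il15, and 78.0 and 85.0 for Ifng. When C1qa was read before Ly6c2 and Rsad2, 6 of the 10 genes kept their highest macrophage part (Il23a, Ebi3, Tnf and Il10 did not). Calls of a gene in a gate numbered 7 at 2-fold (5 genes), 10 at 1.5-fold (7 genes) and 5 at 4-fold (4 genes). The share of basophil barcodes with Il6 was 30.3% at 1000 UMIs, 21.1% at 3000 and 10.5% at 5000. At 3000 UMIs, 15 of the 30 single-gate basophil barcodes were too shallow and were left out. It was not tested what part such losses had in the fall of the share. No paired analysis was possible because the matrix columns carry no replicate number of the labels.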
